A study of Drosophila melanogaster with 3 samples.

Results

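Intergenic binding sites of Achaete (Ac) in the Drosophila melanogaster embryo were examined by chromatin immunoprecipitation followed by sequencing (ChIP-seq). The members are the peaks of the authors' optimal list on the dm6 build whose summit lay outside every annotated protein-coding gene and more than 500 bp from every protein-coding transcription start. They numbered 633 of 2756 peaks, or 23.0% (exact binomial 95% interval 21.4 to 24.6). The other optimal peaks were 1026 promoter peaks, within 500 bp of a start, and 1097 gene-body peaks. The animals were the ac-GFP strain, in which GFP is joined to the C terminus of Ac, and the tag was immunoprecipitated with an anti-GFP antibody. Whole embryos of both sexes, aged 0 to 8 hours, gave 3 biological replicates of this 1 group, with no second condition. Each replicate therefore pools all tissues and stages of that window, and a peak cannot be assigned to a cell type. Nothing in the labels tells whether separate embryo collections were used. The SDs, and the p for recurrence in the replicates, therefore measure the spread between these samples only, part of which may be technical. All other p-values come from tests over peaks of the optimal list or subsets of it, and do not measure spread between replicates.

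Ac is a proneural basic helix-loop-helix (bHLH) protein. With its partner Daughterless (Da) it binds E-boxes, sites of the form CANNTG, and it turns on genes that make ectodermal cells neural precursors, among them genes of the Notch pathway that hold neighbouring cells back from that fate. In flies many developmental genes are controlled by enhancers that lie well outside the transcribed region, so peaks between genes are where such distant sites would be found. The replicate lists held 30000 regions each, before any threshold on reproducibility. Each replicate was represented by its 2756 highest regions, called its top regions, and an optimal peak was counted as present in a replicate when a top summit lay within 150 bp. Ranks are by the authors' signal value, with 1 the strongest. The same rule applied to the replicates' own top regions gave 24.6%, 22.3% and 23.5% intergenic regions, or 23.5% ± 1.15 (SD, n = 3). Among the optimal summits outside genes, 89 lay 251 to 500 bp from a start and so fell short of the rule, while 26 lay 501 to 750 bp away. The nearest member was 525 bp from a start, between dpr20 and CG12502, and the nearest summit left out was 488 bp from one, between Amun and prtp.

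The strongest members that held the E-box bound by Ac or Scute (Sc) with Da are shown first, because they carry the site that the tagged protein is known to recognise. The motif searched was GCAGCTG or GCAGGTG on either strand. Each line gives the 121 bases centred on the summit, dm6 plus strand, named by the 2 genes that flank it, with every match in capitals, and with CACTG or CAGTG, a core described next, in capitals too. The last line is the strongest member with this E-box between a pair of genes of the Enhancer of split complex.
trbl and CG13248 (chr3L:20402785-20402905): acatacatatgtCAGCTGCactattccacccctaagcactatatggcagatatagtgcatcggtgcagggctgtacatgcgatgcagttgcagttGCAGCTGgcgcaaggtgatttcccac
sob and odd (chr2L:3587976-3588096): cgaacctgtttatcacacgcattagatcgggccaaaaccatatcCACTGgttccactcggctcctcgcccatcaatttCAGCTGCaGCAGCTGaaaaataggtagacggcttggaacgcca
Awh and Fie (chr3L:3878819-3878939): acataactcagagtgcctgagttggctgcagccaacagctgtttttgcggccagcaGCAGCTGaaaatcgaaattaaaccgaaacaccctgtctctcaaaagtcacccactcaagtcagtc
vn and CG5568 (chr3L:5859169-5859289): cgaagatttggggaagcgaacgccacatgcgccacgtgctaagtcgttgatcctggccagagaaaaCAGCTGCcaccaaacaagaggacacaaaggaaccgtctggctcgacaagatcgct
E(spl)mgamma-HLH and E(spl)mbeta-HLH (chr3R:26002603-26002723): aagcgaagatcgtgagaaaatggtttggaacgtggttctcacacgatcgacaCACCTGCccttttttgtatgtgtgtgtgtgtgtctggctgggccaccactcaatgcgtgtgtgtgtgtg

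A second short core, CACTG on either strand (CAGTG when read on the other strand), emerged from a scan of all 6-mers described below. The strongest members with 2 or more copies and no E-box within 60 bp follow. The peak at Tet and spz5 has an E-box farther out, within 100 bp, and counts among the E-box members in the results.
slp1 and slp2 (chr2L:3832462-3832582): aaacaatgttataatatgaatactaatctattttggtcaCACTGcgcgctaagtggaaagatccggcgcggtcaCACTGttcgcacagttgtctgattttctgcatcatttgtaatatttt
SoxN and CG32986 (chr2L:8852372-8852492): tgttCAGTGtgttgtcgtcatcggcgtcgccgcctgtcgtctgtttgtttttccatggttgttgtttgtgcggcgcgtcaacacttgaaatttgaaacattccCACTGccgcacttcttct
CG4004 and Paics (chrX:12751091-12751211): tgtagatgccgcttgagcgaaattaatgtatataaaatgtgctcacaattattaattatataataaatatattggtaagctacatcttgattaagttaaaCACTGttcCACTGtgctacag
Tet and spz5 (chr3L:2881812-2881932): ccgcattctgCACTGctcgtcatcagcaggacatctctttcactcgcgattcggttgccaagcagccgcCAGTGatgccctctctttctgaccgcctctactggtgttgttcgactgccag

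The strongest member of the whole set, which held neither core within 60 bp, is given for contrast.
NimC3 and hll (chr2L:14024021-14024141): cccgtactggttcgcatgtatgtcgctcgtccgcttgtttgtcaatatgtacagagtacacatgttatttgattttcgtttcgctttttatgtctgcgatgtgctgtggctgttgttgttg

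Across the 633 members, the E-box lay within 100 bp of the summit in 127, or 20.1% (exact binomial 95% interval 17.0 to 23.4). The same windows moved 1000 bp towards lower coordinates held it in 6.64%, so the share was 3.02 times as high at the summit (exact McNemar test, two-sided, adjusted p = 5.73e-11 over 28 motifs). The replicates' own intergenic top regions gave ratios of 1.87, 3.16 and 3.02, or 2.68 ± 0.710 (SD, n = 3), with the lowest in replicate 1. Over all optimal peaks, 17.9% held the motif. Most of the 127 members had 1 copy (115), 11 had 2 and 1 had 3, with a palindromic match counted once. Matches were most frequent in the 50 bp bin at the summit, at 2.24 per kb, against 1.11 in the bin centred 50 bp above it, 0.695 in the bin 50 bp below it and a mean of 0.325 beyond 500 bp. The summit bin was the highest in each replicate's own regions too, at 1.12, 2.41 and 1.73 per kb. In the 319 members of the commonest width, whose summit is the middle of the region, the summit bin held 1.69 per kb. In the other 314 members it held 2.80. By strength, the share fell from 24.8% of the 145 members among the 689 highest peaks to 16.0% of the 162 members among the 689 lowest, but the exact intervals, 18.0 to 32.7 and 10.8 to 22.6, overlapped.

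**Figure D1:**
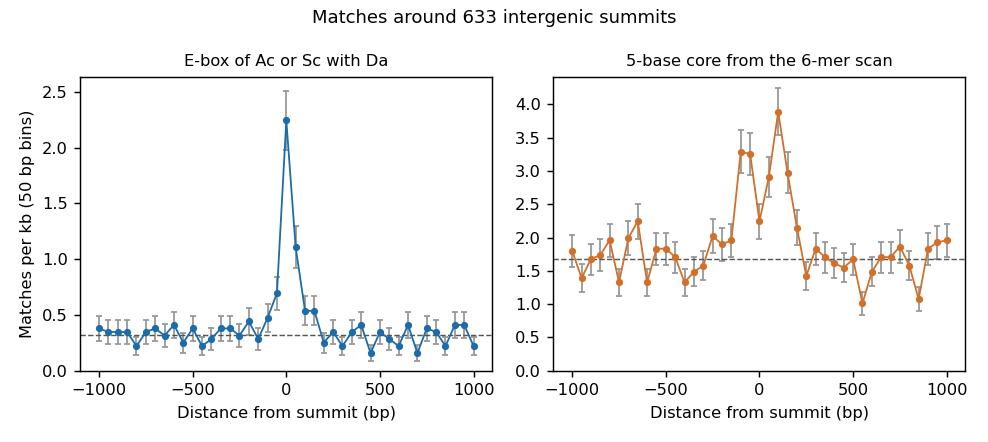
Matches per kb in 50 bp bins around the 633 intergenic summits, for the E-box (left) and the 5-base core from the 6-mer scan (right). Bars are the square root of the count, for counting error only, and the dashed line is the mean beyond 500 bp. The E-box is highest in the summit bin, at 2.24 per kb, and the other core on both sides of it, at 3.29 and 3.89 per kb in the bins centred 100 bp below and above.

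Of the 28 motifs tested at the members' summits against their flanks, 3 were called at an adjusted p below 0.05 (10.7% of those tested), and all 3 were E-boxes that overlap each other. Besides the full motif, these were its core CAGCTG, in 17.5% of members against 8.21% in the flank (ratio 2.13, exact test, adjusted p = 1.76e-05), and CAGGTG, in 14.7% against 7.27% (ratio 2.02, adjusted p = 0.000154). Over all optimal peaks, 19.4% held CAGCTG and 12.8% CAGGTG. The ratios in promoter and gene-body peaks were 2.06 and 2.17 for CAGCTG, and 1.14 and 2.21 for CAGGTG. The other cores were not called. CAGATG gave a ratio of 1.26, CATATG 1.31, CACATG 1.16, CAAGTG 1.06, CAGTTG 0.965, CACGTG 0.952, CAAATG 0.825 and CAATTG 0.593. The Zelda site, CAGGTAG, named for a factor that opens early embryonic chromatin, was in 3.00% of members against 1.42% and was not called (ratio 2.11, exact test, adjusted p = 0.305). Calls of both E-box cores were lost among the members within the 1000 strongest peaks and when replicate 2 or replicate 3 was left out, with ratios of 1.52 to 1.67 for CAGCTG and 1.67 to 1.71 for CAGGTG. The full motif kept its call in those settings, at ratios of 2.37 to 2.55.

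Members with and without the E-box had a different order of recurrence over the 3 replicates. Those with it were present in the top regions of replicate 1 in 59.8%, of replicate 2 in 89.8% and of replicate 3 in 77.2%. Those without it were present in 75.5%, 79.8% and 68.4%. The group with the E-box was thus the lower one in replicate 1 and the higher one in replicates 2 and 3. Promoter peaks with the E-box (63.5%, 87.2% and 73.7%) and gene-body peaks with it (54.3%, 90.5% and 79.5%) had the same order of replicates. How depth or quality of replicate 1 bears on this was not tested, since the lists hold no read counts.

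Intergenic peaks were then set against the promoter and gene-body peaks of the same list, with 56 Fisher's exact tests adjusted together. The E-box share was 4.86 percentage points higher than in promoter peaks (15.2%) and 0.920 points higher than in gene-body peaks (19.1%), and neither difference was called. The odds ratios were 1.40 (95% interval 1.07 to 1.83, exact test, adjusted p = 0.0718) and 1.06 (0.822 to 1.36, adjusted p = 0.859). The comparison with promoter peaks passed the threshold under 2 alternatives, a window of 50 bp to each side (5.14 points, exact test, adjusted p = 0.0364) and a rule that used genes of every annotated type (5.78 points, adjusted p = 0.0288). Against promoter peaks, 6 of the 28 motifs were called (21.4%). Of these, 5 were less frequent in members and are elements known from promoters or bound by repressors. The DNA replication-related element (DRE) was in 0.316% of members and 3.80% of promoter peaks (exact test, adjusted p = 2.52e-05). CGATA, the core bound by the boundary factor BEAF, was in 19.0% and 27.9% (exact test, adjusted p = 0.000704). The core promoter element known as Ohler motif 1 was in 0.474% and 2.83% (exact test, adjusted p = 0.00499). The GAGA element GAGAGAG was in 4.74% and 8.58% (exact test, adjusted p = 0.0287), and the site of the Hairy and E(spl) repressors, CACGCG or CACGTG, in 6.64% and 10.7% (adjusted p = 0.0399).

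AGGAC, the core bound by the zinc finger repressor Tramtrack, was the 1 motif called higher in members than in promoter peaks (18.8% against 9.55%, exact test, adjusted p = 6.77e-06). It was also the 1 motif of 28 (3.57%) called against gene-body peaks, at 12.9% (exact test, adjusted p = 0.0114). In members, however, the flank held it in 18.3%, a ratio of 1.03 to the summit, while promoter and gene-body peaks held it less often at the summit than in their flanks (ratios 0.476 and 0.779). The replicates' own regions gave 7.24, 10.6 and 10.5 points over promoter regions and 5.39, 6.99 and 6.33 points over gene-body regions. The gene-body call was lost when any 1 replicate was left out, at 3.42 to 4.44 points, among the 1000 strongest peaks, at 4.55 points, and with 1 peak per intergenic interval, at 6.52 points. The promoter call was lost among the 1000 strongest peaks (8.17 points, exact test, adjusted p = 0.111) and kept in the other 7 alternatives, at 7.18 to 9.82 points.

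Genes that control early patterning and the choice of neural fate were among the genes beside members. A gene was counted when it was the nearest protein-coding gene on either side of a member. Of 13945 protein-coding genes, 626 flanked at least 1 member (4.49%). Against that background stood 10 of the 13 genes of the Enhancer of split (E(spl)) complex, 9 of 12 gap and head gap genes, 11 of 16 Iroquois, T-box and NK homeobox genes, 9 of 14 Sox and zinc finger patterning genes, 5 of 8 Hox genes, 3 of 5 GATA factor genes, 7 of 12 segment polarity genes, 11 of 21 neuroblast genes, 8 of 16 sensory organ precursor genes, 4 of 8 pair-rule genes and 7 of 16 Notch pathway genes. Smaller shares came from the EGF receptor pathway (4 of 12), mesoderm and muscle precursor genes (6 of 18), axon guidance genes (4 of 15), dorsal ectoderm and BMP genes (3 of 16) and glial genes (1 of 8). No member was flanked by any of the 12 proneural bHLH genes and partners or the 9 neuronal differentiation genes, and 2 of 92 ribosomal protein genes flanked one. The gene ac itself flanked none. It lies inside the annotated gene CG32816, as do sc, l(1)sc and ase, so the rule cannot reach sites beside them. Neighbouring genes share peaks and the lists share genes, so these counts are a description and were not tested.

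Long intergenic stretches give a gene more room to flank a peak. The median of the longest stretch beside a gene was 0.537 kb over all protein-coding genes, against 4.27 kb for the E(spl) complex, 7.22 kb for the sensory organ precursor list, 19.3 kb for the gap genes and 21.1 kb for the Iroquois, T-box and NK list. The lists with few or no genes beside a member had short stretches, with medians of 0.765 kb (proneural), 1.05 kb (neuronal differentiation) and 0.56 kb (ribosomal protein genes). Of all genes with a stretch of 20 kb or more beside them, 280 of 884 flanked a member (31.7%), and of the listed genes other than ribosomal ones in that bin, 46 of 61 did (75.4%). Between 10 and 20 kb the counts were 138 of 783 (17.6%) and 16 of 26 (61.5%). Between 5 and 10 kb they were 100 of 948 (10.5%) and 8 of 32, and between 2 and 5 kb 89 of 1338 (6.65%) and 14 of 25 (56.0%). Below 2 kb they were 19 of 9992 (0.190%) and 1 of 55 (1.82%).

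**Figure D2:**
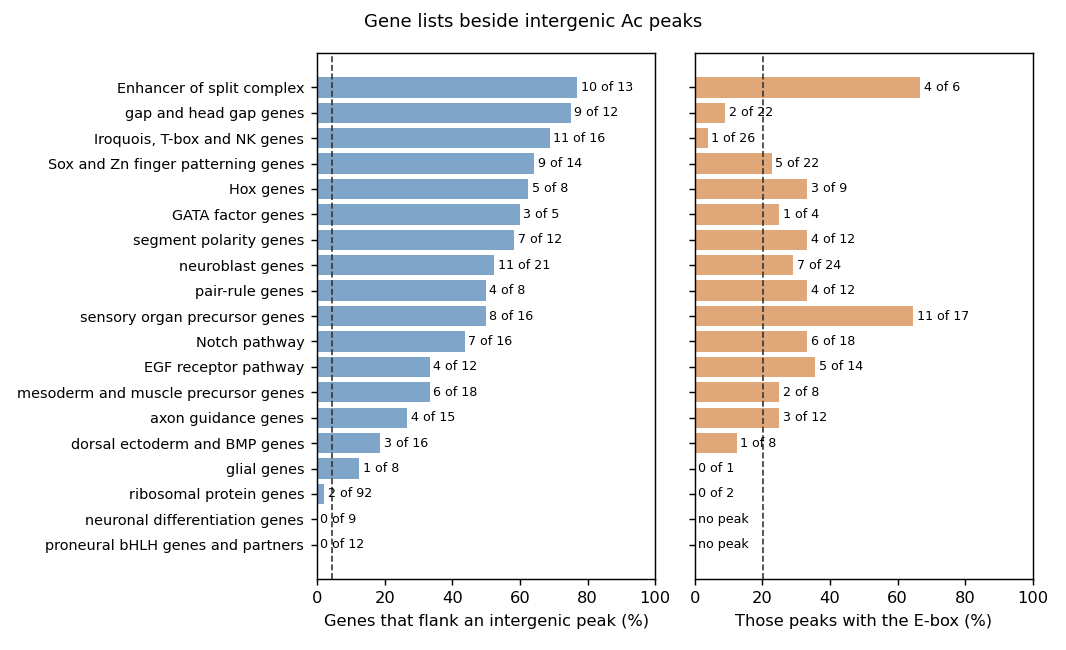
Left, share of each list's genes that were the nearest protein-coding gene on either side of an intergenic peak; the dashed line is the 4.49% of all protein-coding genes. Right, share of those peaks with the E-box within 100 bp of the summit; the dashed line is the 20.1% of all 633. The E(spl) and sensory organ precursor lists have the 2 longest bars on the right, at 4 of 6 and 11 of 17 peaks.

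The share of these peaks with the E-box varied from list to list. It was in 4 of the 6 members beside E(spl) genes and in 11 of the 17 beside sensory organ precursor genes (64.7%), against 20.1% of all members. It was in 6 of 18 beside Notch pathway genes (33.3%) and 7 of 24 beside neuroblast genes (29.2%). By contrast, 2 of 22 members beside gap and head gap genes (9.09%) and 1 of 26 beside the Iroquois, T-box and NK genes (3.85%) held it. The CACTG core had another order, with 1 of 6 at E(spl), 4 of 17 at the sensory organ precursor list, 13 of 22 at the gap genes and 14 of 22 at the Sox and zinc finger list, against 44.1% of all members. The lists were chosen with earlier results of these data known, and no test was made of these differences.

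The E(spl) complex on 3R holds clustered targets of Notch signalling, most of them bHLH repressors of the neural fate or small Bearded-family proteins. Its strongest member, the last of the E-box sequences above, lay between E(spl)mgamma-HLH and E(spl)mbeta-HLH at rank 178, and it ranked 926, 139 and 68 in replicates 1, 2 and 3. The next, between E(spl)m5-HLH and E(spl)m6-BFM, had rank 293 and replicate ranks of 933, 281 and 114. The member between E(spl)m6-BFM and E(spl)m7-HLH had rank 497 and replicate ranks of 874, 491 and 196. All 6 members of the complex were in the top regions of all 3 replicates, and the 3 strongest ranked lowest in replicate 1. Elsewhere in the Notch pathway, Delta, the gene of the main Notch ligand, flanked 6 members, the strongest 13194 bp upstream of the gene at rank 370 with replicate ranks of 302, 460 and 477. Of these 6 members, 4 held the E-box. Tom, a Bearded-family inhibitor of Notch signalling, shared with BobA a peak of rank 72, with replicate ranks of 277, 47 and 56.

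Sensory organ precursor genes are switched on in the cells that proneural proteins select. The strongest member here lay 3209 bp upstream of sca, which encodes a secreted Notch pathway protein, at rank 288 with replicate ranks of 4202, 159 and 91. The gene phyl, needed for precursor fate, had a member 1026 bp upstream at rank 461, which ranked 314 and 373 in replicates 2 and 3 and had no replicate 1 summit within 150 bp. The nearest one there was 211 bp away at rank 1298 and was matched to the other phyl member, of rank 987, which also shares the replicate 3 region of rank 373. The gene sens, a zinc finger factor that maintains the fate, flanked 4 members, and 3 of these held the E-box. Its strongest, 1892 bp beyond the 3′ end, had rank 859 and replicate ranks of 1238, 499 and 521. All 3 members beside scrt held the E-box, the strongest at rank 1279 with replicate ranks of 2230, 947 and 3032. The member beside insb, a nuclear inhibitor of Notch target genes, had rank 1293, ranks of 797 and 809 in replicates 2 and 3, and no replicate 1 summit nearer than 656 bp. Only 5 of the 17 members of this list were in the top regions of all 3 replicates (29.4%), against 46.6% of all members, and the peaks at sca, sens and scrt described here ranked lower in replicate 1 than in replicate 2.

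Patterning genes flanked strong members as well as weaker ones. The sob and odd genes, which encode related zinc finger factors, shared a peak of rank 27, with replicate ranks of 93, 14 and 19 and 2 E-boxes. The forkhead genes slp1 and slp2 shared one of rank 59, with replicate ranks of 45, 64 and 117, 4 copies of CACTG within 100 bp and no E-box. SoxN, a Sox factor of the neuroectoderm, flanked 6 members, the strongest 22762 bp beyond its 3′ end at rank 126 with replicate ranks of 452, 87 and 146. The strongest Iroquois member was the peak between caup and mirr at rank 253, with replicate ranks of 381, 273 and 187. C15, a homeobox gene, had a member 7548 bp beyond its 3′ end at rank 42, which lay 566 bp from the start of sp3 on its other side and ranked 12, 76 and 116, highest in replicate 1. The secreted signal gene wg and its relative Wnt4 shared a divergent interval with 4 members, the strongest at rank 430 (replicate ranks 568, 532 and 509). Antp had the strongest Hox member, 38309 bp upstream at rank 265 (751, 207 and 218), and vn, an EGF receptor ligand, flanked 4 members led by rank 170 (453, 123 and 128).

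For the remaining lists, the strongest peaks ranked between 308 and 2263. These lay beside Doc2 at rank 308 (replicate ranks 155, 542 and 359) and robo1 at rank 546 (252, 801 and 1620). Then came srp at rank 1215 (1627, 1352 and 970), mid at rank 1275 (972, 1254 and 1780) and gcm at rank 2263 (3845, 1737 and 19379). The gcm peak was thus outside the top regions of replicates 1 and 3. Doc2 and mid encode T-box factors, robo1 an axon guidance receptor, srp a GATA factor and gcm the factor that sets glial fate. The strongest peak beside a ribosomal protein gene had rank 1034, between ci and RpS3A on chromosome 4, and was the strongest peak beside the segment polarity gene ci. It ranked 1727 and 352 in replicates 2 and 3 and had no replicate 1 summit within 150 bp.

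The 20 strongest members were all in the top regions of all 3 replicates. Among the 689 highest peaks, 97.2% of members and 96.5% of other peaks were. The optimal list was derived from these same replicates, so a high rank in it and presence in them are not independent. The E-box was in 2 of the 20, those at trbl and at sob and odd. It was in 20.1% of all members and in 24.8% of those among the 689 highest peaks. The strongest member was the peak between NimC3 and hll on 2L, rank 5 in the optimal list and ranks 7, 3 and 4 in the replicates, inside the noncoding gene lncRNA:CR31840. NimC3 encodes a phagocytic receptor of the Nimrod family. Psc, Su(z)2 and RYBP, named for their place among the strongest members, encode Polycomb group proteins or a partner of them. A peak 4190 bp upstream of Psc had rank 10 (replicate ranks 18, 9 and 7), another beyond its 3′ end, between CG13321 and Psc, had rank 40 (42, 40 and 45), and one more, 27455 bp beyond the 3′ end of its relative Su(z)2, had rank 36 (35, 33 and 79). RYBP, the gene of the partner, and Ppa flanked a peak of rank 20 (36, 21 and 20). The forkhead gene croc had a member at rank 14 (25, 17 and 12), and zfh2, a zinc finger homeodomain gene on chromosome 4, one at rank 18 (86, 13 and 11). The peak at trbl, which encodes a regulator of cell division in the embryo, had rank 25 and replicate ranks of 120, 19 and 13. The peak between blw and CycB had rank 19 (14, 27 and 26) and lay 565 bp beyond the 3′ end of CycB, the gene of a mitotic cyclin. The others lay beside Cyt-c1L and eEF1gamma (rank 16), COX7AL2 and CG31668 (rank 21), CG43131 and RabGGTa (rank 45), Inx2 and cm (rank 52), CG13896 and hng3 (rank 68), CG9300 and Shal (rank 76) and corto and CG43131 (rank 83).

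**Figure D3:**
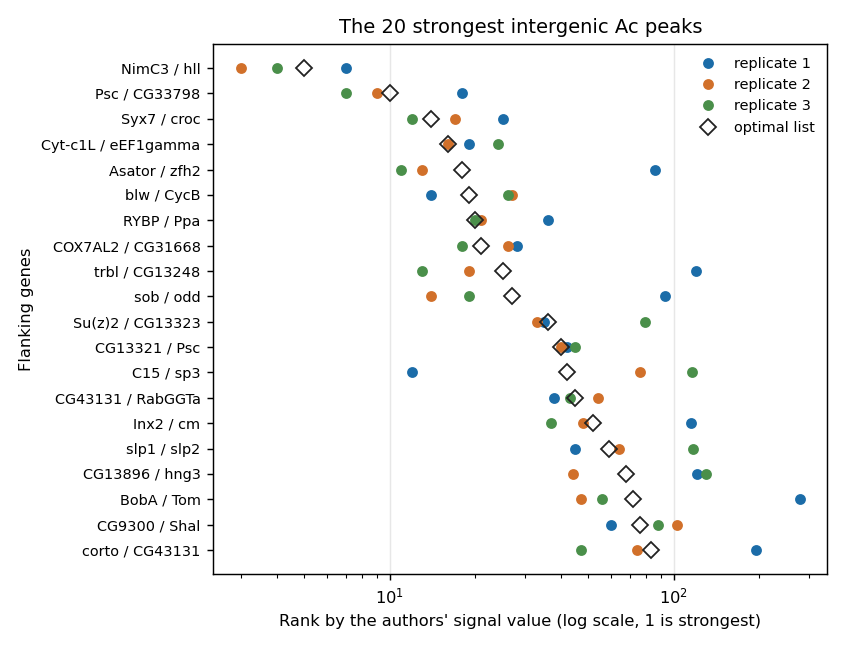
Ranks of the 20 strongest intergenic peaks in the optimal list (diamonds) and in each replicate's own list (points), on a log axis where 1 is the strongest; each line is named by its 2 flanking genes. The NimC3 and hll peak ranks between 3 and 7 everywhere, while the BobA and Tom peak ranges from 47 to 277 across replicates.

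Members were grouped along the chromosomes. They fell into 351 stretches between genes, of which 134 held 2 or more and together 416 members. The median length of the stretches with a member was 14.3 kb, against 1.60 kb over the 5757 stretches that contain any sequence allowed by the rule. The median distance to the nearest other intergenic summit was 5833 bp, and 309 members (48.8%) had one within 5000 bp. Stretches with many members included those on 3L between CG44362 and CG7560 (8 members, 1 with the E-box) and between scyl and Dyro (7 members, none with it). A further 6 stretches held 6 members each. Of these, the stretches between SoxN and CG32986 on 2L and between caup and mirr on 3L had the highest-ranked peaks, at ranks 126 and 253. They had 2 and 0 members with the E-box. The stretch between Delta and CG43203 had 4, and the remaining ones had 1 or 2. The interval from scyl to Dyro had no member in the top regions of all 3 replicates.

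MicroRNA genes outside protein-coding genes lay near several members. Of 57 loci holding 93 such genes, 14 had a member within 10000 bp, and 22 members lay that close to one. This is 32.2 members per Mb of the sequence allowed by the rule there (exact Poisson 95% interval 20.2 to 48.8), against 15.8 over all such sequence. By distance from a protein-coding start, the density over all such sequence was 18.4 to 23.3 per Mb up to 20000 bp and 3.96 beyond. The comparison was not matched for this distance, and the interval treats members as independent although several share a locus. The strongest was the peak of rank 16 listed above, which lay 1186 bp from mir-279 and ranked 19, 16 and 24 in the replicates. Its product and that of the neighbouring mir-996 are known for limiting the formation of certain sensory neurons. Next was the peak of rank 76 (60, 103 and 88 in the replicates), 4344 bp from mir-9a, whose product represses sens. Others lay near mir-124 (1665 bp, rank 1306), whose product is abundant in neurons, mir-8 (910 bp, rank 1348), mir-14 (941 bp, rank 1390) and mir-10 (1361 bp, rank 1725) in the Hox cluster.

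A scan of all 2080 distinct 6-mers, both strands counted together, compared summit windows with the same flanks. It was added after the data had been seen. It called 20 (0.962%), 18 of them more frequent at the summit and 2 less (exact McNemar test, adjusted over the scan). The lowest p belonged to AGTGTA, in 16.9% of members against 6.16% in the flank (ratio 2.74, exact test, adjusted p = 6.82e-06), with replicate ratios of 2.88, 2.53 and 1.88. CAGTGC followed, at 17.5% against 7.27% (ratio 2.41, exact test, adjusted p = 4.26e-05), with replicate ratios of 1.93, 2.68 and 1.91. Then came AGTGCA, at 20.9% against 10.6% (ratio 1.97, exact test, adjusted p = 0.000509). ACAGTG, at 13.3% against 5.37% (ratio 2.47), and CAGCTG shared the next p (exact test, adjusted p = 0.000522). Of the 18 higher 6-mers, 6 held CACT or AGTG, 2 were the E-box cores CAGCTG and CAGGTG, and 3 held a GAGA or TCTC stretch. The first, AGTGTA, was called in promoter peaks (ratio 2.15) and gene-body peaks (ratio 1.77) as well. CAGTGC was called in gene-body peaks (ratio 1.79, exact test, adjusted p = 0.000511) and not in promoter peaks (ratio 1.20, adjusted p = 0.36). The call for AGTGTA was lost with a window of 50 bp to each side (ratio 1.88, exact test, adjusted p = 0.249) and with 1 peak per interval (ratio 2.84, adjusted p = 0.061). Among the 1000 strongest peaks the ratio was 6.29.

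**Figure D4:**
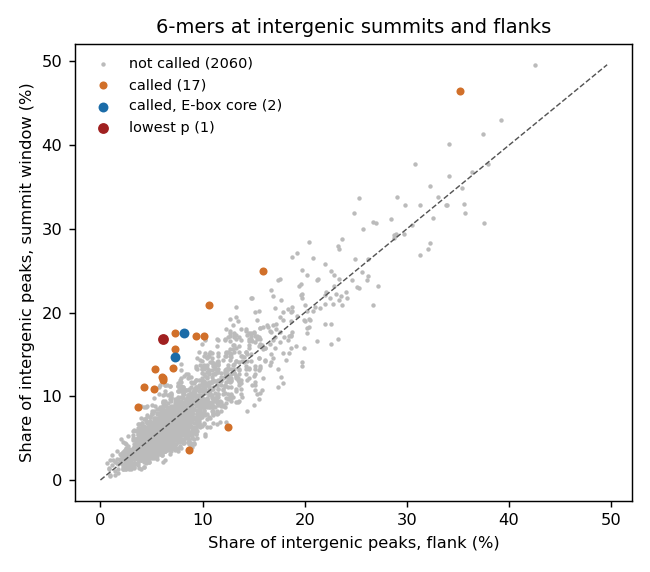
Share of intergenic peaks that hold each of 2080 6-mers in the window around the summit (vertical) and in the flank 1000 bp away (horizontal). The 20 called 6-mers are coloured; the one with the lowest p is at 16.9% and 6.16%, and the 2 E-box cores are at 17.5% and 8.21% and at 14.7% and 7.27%.

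The 5-base core CACTG, on either strand, was part of 4 of the 18 higher 6-mers, and AGTGTA was not among these. It was in 279 members (44.1%, exact binomial 95% interval 40.2 to 48.0) and in 25.9% of flanks, a ratio of 1.70. It was picked from the scan, so it was given no test. Of all optimal peaks, 43.2% held it, with 41.3% of promoter and 44.5% of gene-body peaks, so the share of members was near that of the whole list. The replicates' intergenic regions gave ratios of 1.64, 1.75 and 1.41. It was in 42 of the 127 members with the E-box, and 269 members (42.5%) held neither. Where the E-box peaked at the summit, CACTG was lower there, at 2.24 matches per kb, than in the bins centred 100 bp below and above it, at 3.29 and 3.89, and its mean beyond 500 bp was 1.68. The bins centred 50 bp below and above held 3.25 and 2.91 per kb. The lower summit bin was clearest in the 314 members whose width differed from the commonest one, at 1.91 against 3.63 and 4.39 per kb at 100 bp. In the 319 members of the commonest width, 390 bp, whose summit is the middle of the region, the values were 2.57 against 2.95 and 3.39. Promoter peaks had a lower summit bin too, at 2.03 per kb against 3.43 and 3.55, as did gene-body peaks, at 2.10 against 3.66 and 3.39. In the own intergenic top regions of replicates 1, 2 and 3 the summit bin held 2.63, 1.95 and 2.25 per kb, below both bins at 100 bp in each.

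Members lay at all distances from genes, up to 64278 bp from the nearest start, with a median of 5161 bp and quartiles of 2164 and 10708 bp. The sequence allowed by the rule amounted to 39.9 Mb, 29.9% of the chromosome arms, and its median distance was 8465 bp. Per Mb of that sequence there were 21.6 members at 501 to 1000 bp, 23.3 at 1001 to 2000 bp, 21.6 at 2001 to 5000 bp, 18.8 at 5001 to 10000 bp and 18.4 at 10001 to 20000 bp. Beyond 20000 bp there were 3.96 (exact Poisson 95% interval 2.87 to 5.34), and 5.25, 3.69 and 4.33 in the replicates' own regions. The density at 501 to 2000 bp was 1.82 times that beyond 5000 bp, with ratios of 1.91, 2.00 and 1.92 in the replicates. Soft-masked repeats made up 38.7% of the sequence beyond 20000 bp and 19.6% to 24.0% of it nearer, and their part in the lower density was not tested. No member summit lay in an annotated transposable element, although these elements cover 10.5% of the allowed sequence. A count of 0 allows a share of up to 0.474% when taken as 3 of 633, and the exact binomial 95% interval reaches 0.581%. Repeats can lose peaks where reads match several places, and how the authors treated such reads is not given in the sources used here. Replicate 1 alone had 3 such summits among its 677 intergenic regions. Noncoding RNA genes held 92 members, or 14.5% (exact binomial 95% interval 11.9 to 17.5), against 6.60% of the allowed sequence.

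**Figure D5:**
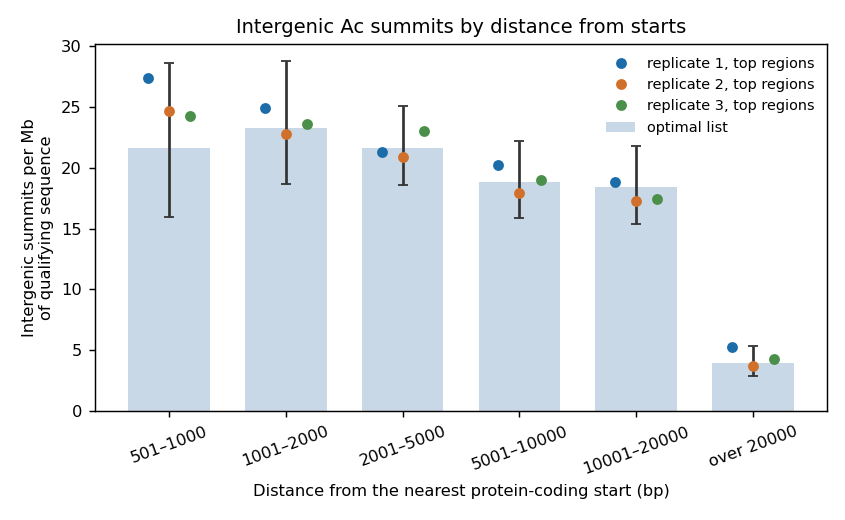
Intergenic Ac summits per Mb of sequence allowed by the rule, by distance from the nearest protein-coding start. Bars show the optimal list with exact Poisson 95% intervals (counting error only), points the top regions of replicates 1 to 3; the density is 18.4 or more per Mb up to 20000 bp and 3.96 beyond.

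The orientation of the flanking genes and the chromosome arm also went with density. Between divergent genes there were 21.7 members per Mb (exact Poisson 95% interval 18.8 to 24.9), against 15.1 between genes in tandem (13.5 to 16.9) and 14.5 between convergent genes (12.1 to 17.3). Within 5000 bp of a start, where divergent stretches have a start on either side, the densities were 28.2, 19.7 and 18.3. The divergent class was highest in each replicate, at 21.0, 21.6 and 22.9 per Mb. Among the large arms, 3L had the most members per Mb (209 members, 21.7 per Mb, interval 18.9 to 24.9) and X the fewest (61 members, 9.78 per Mb, interval 7.48 to 12.6). The replicates' own regions gave 21.9, 20.7 and 20.7 per Mb on 3L and 10.1, 9.14 and 8.34 on X. On 2L, 3R and 2R the optimal list gave 18.4, 15.2 and 11.9 per Mb, and the 4 members of chromosome 4 gave 13.4. Optimal peaks of all classes, per Mb of whole arm, were also fewest on X among the large arms (17.5). Their density on 2L (23.3) was above that on 3L (22.5). The Poisson intervals treat members as independent, which clustered peaks are not.

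Recurrence in the replicates differed between intergenic and other peaks by less than its spread over the replicates. Members were present in the top regions of replicates 1, 2 and 3 in 72.4%, 81.8% and 70.1%, or 74.8% ± 6.21 (SD, n = 3), and the other peaks in 70.7%, 84.5% and 71.1%. The differences were 1.70, -2.62 and -0.984 points, with a mean of -0.636 ± 2.18 (exact two-sided sign-flip permutation test, p = 0.75, where 0.25 is the smallest p that 3 replicates can give). In all 3 replicates' top regions there were 295 members, or 46.6% (exact binomial 95% interval 42.7 to 50.6), beside 47.5% of all optimal peaks. A further 208 members were in those of 2 replicates, 119 in those of 1 and 11 in none. In the full lists, 95.7%, 99.4% and 96.2% of members had a counterpart. By strength, 97.2% of the members among the 689 highest peaks were in the top regions of all 3 replicates, and 2.47% of those among the 689 lowest, which rank close to the cut-off of 2756. Because the optimal list was derived from these same replicates, such shares are not independent of its ranks. Over members with a counterpart in both lists, Spearman's rho between ranks was 0.642 for replicates 2 and 3 (605 members), 0.522 for 1 and 2 (602 members) and 0.431 for 1 and 3 (583 members). These values describe peaks of shared libraries and carry no p.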

How the data were processed

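The authors' deposited dm6 lists were used: 1 optimal list and 3 replicate lists of 30000 regions. Per the deposited notes, each replicate list rests on its own alignments and those of a control, and the optimal list came from the irreproducible discovery rate; sonicated fragments were 200 to 800 bp per the labels. The sources used here do not give the peak caller, its version, the threshold or the treatment of multiply matching reads. The authors' signal value, a score whose scale the files do not state, served only to rank regions within 1 list. Summit offsets gave positions. Lists hold no read counts, so depth is unknown. The dm3 and pooled lists were not used.

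Gene models (BDGP 6.54, Ensembl release 115) and the release 6 sequence served as reference on arms 2L, 2R, 3L, 3R, 4 and X. A summit within 500 bp of a protein-coding start was a promoter summit, one inside a gene a gene-body summit, and any other intergenic. Motifs were sought on both strands within 100 bp of the summit and in a window 1000 bp towards lower coordinates. They were the Ac/Sc-Da E-box (GCAGCTG or GCAGGTG) and the E-box cores named in the results, sites for Hairy and E(spl) (CACGCG or CACGTG), Zelda (CAGGTAG), the GAGA factor (GAGAGAG), BEAF (CGATA), the GATA factors (AGATAAG or TGATAAG), homeodomains (TAATTA), Bicoid (TAATCC), Caudal (TTTATG), Grainyhead (AACCGG), Sox factors (ACAAAG or ACAATG) and Tramtrack (AGGAC), the TATA element (TATAAA) and, by name, the DRE, Ohler motif 1 and the Su(H), Dorsal and Stat92E sites. E-box motifs overlap each other. Exact McNemar and Fisher's tests were two-sided with Benjamini-Hochberg adjustment over 28 and 56 tests. Binomial and Poisson intervals are exact, at 95%, and cover counting error only. The named genes were the flanks of the 20 strongest members, 4 of the 5 fullest intervals (the other is not reported here), each list's gene beside its strongest member, ac, every called motif and all E-box cores; further genes of the E(spl), Notch, sensory organ precursor and microRNA groups were named after their values were seen. Members and the 19 lists were chosen with earlier results of these data known; of the list symbols, 4 needed their current name and 0 stayed unmatched. Scripts used Python 3.11.15, numpy 2.4.6, scipy 1.17.1 and matplotlib 3.10.9, and were tested on simulated data.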

Additional observations from a re-analysis of the deposited data

How the results depend on the processing

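Except for recurrence, leaving out a replicate meant using only the 1446 to 1703 optimal peaks that both other replicates had among their top regions. Those versions are subsets with stricter support whose summits still come from all 3. For recurrence, all 2756 optimal peaks were kept and set against the top regions of the remaining replicates. The enrichment of the E-box at the summits kept its direction and call in all 10 alternatives, with ratios of 2.37 to 4.43. The intergenic share, 23.0%, was 20.9% among the 1000 strongest peaks, 18.6% with genes of every annotated type, 21.2% with a distance of more than 1000 bp from starts, and 22.5% to 22.8% without 1 replicate. The density ratio near starts, 1.82, was 2.35, 2.42 and 1.87 in the first 3 of these settings (the last was added after seeing the data) and 1.87 to 2.03 without 1 replicate. The difference in recurrence, -0.636 points, changed sign among the 1000 strongest peaks (1.08 points) and ranged from -1.80 to 0.358 points without 1 replicate, positive without replicate 2. The E-box difference from promoter peaks passed the threshold with a 50 bp window (5.14 points) and with genes of every type (5.78 points). The cause of these changes was not tested. The difference from gene-body peaks stayed uncalled in all 8 alternatives, at 0.281 to 5.05 points. The lower shares of the DRE and of CGATA against promoter peaks kept their direction in all 8 added alternatives, while the calls were lost in 1 and 3 of them. No paired comparison of conditions was possible because the study has 1 group.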

Other observations

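The 2 6-mers less frequent at intergenic summits than in their flanks were CCAAGA, in 6.32% of members against 12.5% (exact test, adjusted p = 0.0407), and GATCCA, in 3.63% against 8.69% (adjusted p = 0.0407). Ratios in the replicates' own regions were 0.681, 0.549 and 0.692 for the first and 0.604, 0.538 and 0.600 for the second, all below 1. AT-rich AAATAT was the most common called 6-mer, in 46.4% of members against 35.2% (ratio 1.32, exact test, adjusted p = 0.0183). The same scan called 474 of 2080 6-mers in the 1026 promoter peaks and 114 in the 1097 gene-body peaks, sets of unequal size, so the counts are not compared.

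Intergenic summits had a median GC content of 39.3% within 100 bp, and 41.8% in replicate 3's own regions, the highest of the 3 replicates. Of the 633 members, 7 neighbouring pairs had summits within 200 bp of each other, so that their motif windows overlap. The phyl pair, at ranks 461 and 987, is one of them.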
